A study of Mus musculus with 45 samples.

Results

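The mouse Nlrp4, Nlrp9 and Nlrp14 genes measured in oocytes and early embryos are described here: Nlrp4a, Nlrp4b, Nlrp4c, Nlrp4e, Nlrp4f, Nlrp9a, Nlrp9b, Nlrp9c and Nlrp14. These 9 genes were taken by symbol from a deposited table of 26214 genes. The rule used no measured value, but it was set with earlier results of these data known. RNA was sequenced from fully grown oocytes (FGOs) and from single two-cell embryos, and the values are TPM, a length-scaled measure in which every library adds up to the same total. Control females carried the H3f3b K36M-flox/+ allele, and K36M females carried H3f3b K36M-flox/+ together with a Gdf9-Cre transgene, which expresses Cre recombinase from an oocyte promoter, so that their growing oocytes produced HA-tagged histone H3.3 with lysine 36 replaced by methionine beside the normal histone. FGOs came from females of 3 to 4 weeks on a hybrid C57BL/6 / 129 background, with 5 FGOs pooled in each library, 3 control libraries and 3 K36M libraries. Two-cell embryos were made by in vitro fertilization of control or K36M oocytes with JF-1 sperm (hybrid C57BL/6 / 129 X JF-1) and taken 31 to 32 hours after fertilization, with 7 control and 8 K36M oocyte-derived embryos used. A further control embryo, replicate 4, was left out by the study for a technical problem and is given apart. The mutation changes 1 residue, so gene-level TPM values could not check the genotype labels.

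NLR proteins are cytoplasmic proteins with a central nucleotide-binding NACHT domain and a run of leucine-rich repeats, and most of those named Nlrp carry a pyrin domain at their start. Some of them, such as Nlrp3, assemble inflammasomes with the adaptor Pycard and the protease Casp1, whereas a reproductive branch of the family is expressed mainly in oocytes and is stored as maternal RNA and protein for the embryo. Nlrp5 (Mater) and Nlrp2 in that branch are components of the subcortical maternal complex, a protein assembly beneath the oocyte membrane that the embryo needs for its first divisions. Nlrp14 is a maternal-effect gene required for early embryonic development, Nlrp4f associates with the subcortical maternal complex, and Nlrp9b is also known for an inflammasome in intestinal epithelium. The Nlrp4 and Nlrp9 genes expanded by duplication in the mouse lineage.

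Of the 9 genes, 8 lie on chromosome 7 in GRCm38.p6, the assembly of mm10, to which the study mapped its reads. Nlrp4c, Nlrp4b, Nlrp9b, Nlrp4e, Nlrp9c, Nlrp4a and Nlrp9a lie in that order within 20.5 Mb, and Nlrp9c, Nlrp4a and Nlrp9a fall within 209 kb (chr7:26364691-26574148). Nlrp14 lies further along the chromosome (chr7:107113455-107198103, plus strand), and Nlrp4f lies apart from the others (chr13:65177111-65205716, minus strand). No exon of the 9 genes overlapped an exon of another RefSeq gene on the same chromosome, on either strand.

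Their coding sequences showed which genes are close copies. Nlrp4c and Nlrp4e shared 93.9% of aligned coding bases, and Nlrp4f shared 93.4% with Nlrp4g, which GENCODE annotates as a pseudogene. Nlrp9a and Nlrp9c shared 87.7%, Nlrp9a and Nlrp9b 84.2%, and Nlrp9b and Nlrp9c 82.8%. Nlrp4b was the most distant Nlrp4 copy among the genes compared, at 78.1% to Nlrp4a and 79.1% to Nlrp4c. Between the Nlrp4 group, the Nlrp9 group and Nlrp14 the identity was lower, for example 59.2% between Nlrp4a and Nlrp14.

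**Figure D1:**
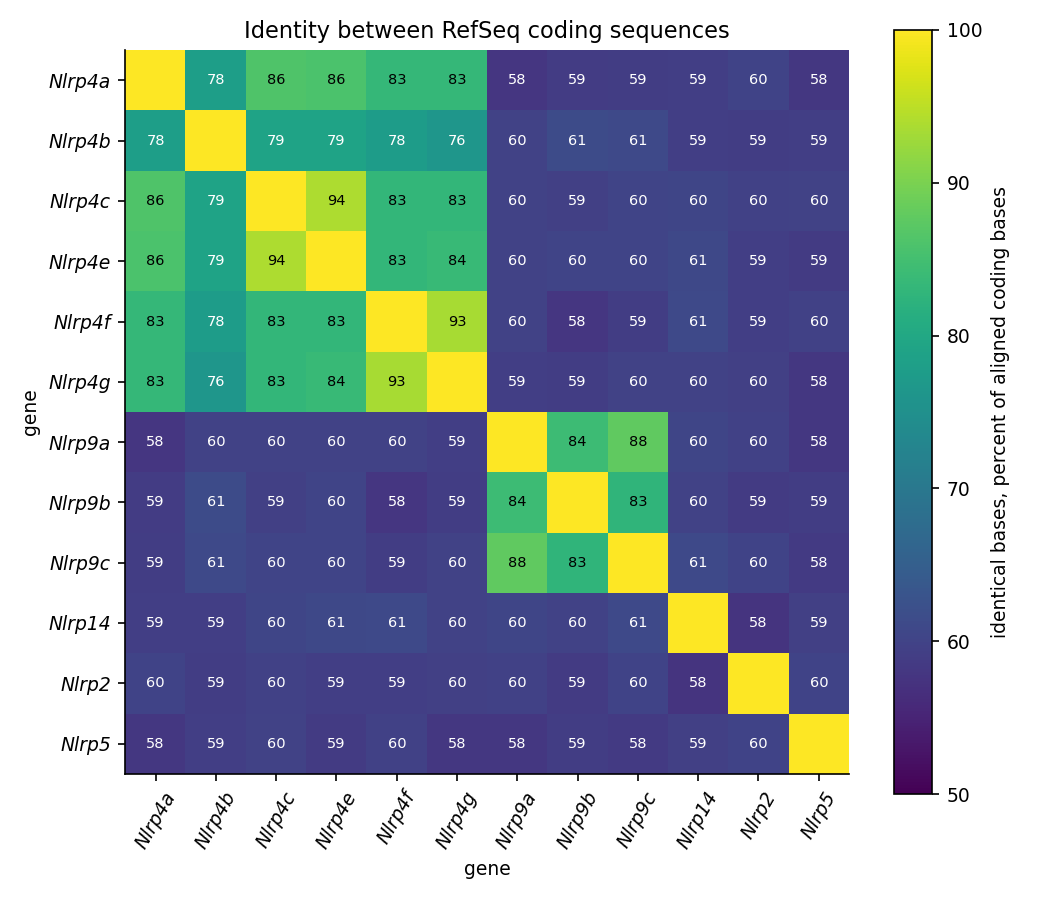
Percentage of aligned coding bases that are identical (color scale, 50 to 100) for each pair of the 9 genes and of Nlrp4g, Nlrp2 and Nlrp5, from RefSeq coding sequences. The Nlrp4 genes and the Nlrp9 genes form separate blocks, with the closest pairs Nlrp4c with Nlrp4e (93.9%) and Nlrp4f with Nlrp4g (93.4%).

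Close copies can share reads, so each gene's GENCODE transcripts were cut into windows of 53 bases, the length of 1 read, and windows that also occur in transcripts of another gene were counted. Nlrp4e was the most exposed, with 34.2% of its 3348 windows shared, 973 of them with the annotated pseudogene Gm16443. Nlrp4c shared 9.36% of its windows, mostly with Nlrp4e, Nlrp9b shared 7.31%, Nlrp9a 5.31%, and Nlrp4f 5.04%, mostly with Nlrp4g. Nlrp9c and Nlrp4a shared 2.21% and 2.13%, and Nlrp4b and Nlrp14 shared none. How the study's counting treated such reads is not given in the sources used here, so the TPM values of Nlrp4e in particular are uncertain.

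Sequence at or just before an annotated GENCODE start was also shared by the 3 Nlrp9 genes and by Nlrp4a, Nlrp4b and Nlrp4c. It is printed because it is a feature that copies with different levels have in common. The RefSeq promoter table held windows (250 bases before to 50 after a start) for 8 of the 9 genes, all but Nlrp14. The earliest window of Nlrp9a was aligned to the region of Nlrp9b and Nlrp9c, and that of Nlrp4b to the regions of Nlrp4a, Nlrp4c and Nlrp4e, from 3000 bases before to 20000 bases after the RefSeq start. The stretches below run from the first to the last run of at least 8 bases that every listed copy held unchanged, and capitals mark those runs. For the Nlrp9 genes the stretches lie at chr7:26534887-26535068 (plus strand) for Nlrp9a, chr7:20003889-20004070 (plus strand) for Nlrp9b and chr7:26403699-26403880 (minus strand) for Nlrp9c, in GRCm38.p6.
Nlrp9a: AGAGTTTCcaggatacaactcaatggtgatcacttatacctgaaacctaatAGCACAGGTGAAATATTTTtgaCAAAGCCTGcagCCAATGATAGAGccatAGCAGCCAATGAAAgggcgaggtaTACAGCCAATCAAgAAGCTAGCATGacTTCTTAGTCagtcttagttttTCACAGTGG
Nlrp9b: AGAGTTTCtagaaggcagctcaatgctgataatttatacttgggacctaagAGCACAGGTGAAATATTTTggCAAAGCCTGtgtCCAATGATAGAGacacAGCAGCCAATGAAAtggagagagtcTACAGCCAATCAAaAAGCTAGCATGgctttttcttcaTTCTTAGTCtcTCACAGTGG
Nlrp9c: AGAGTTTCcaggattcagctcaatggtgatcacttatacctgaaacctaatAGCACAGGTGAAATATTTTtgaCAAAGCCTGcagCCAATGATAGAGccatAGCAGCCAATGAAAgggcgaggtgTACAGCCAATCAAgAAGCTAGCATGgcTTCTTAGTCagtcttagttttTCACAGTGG

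All 3 Nlrp9 stretches were 182 bases long and held the same 9 runs in the same order. They ended 2 bases before the nearest annotated GENCODE start of Nlrp9a, 24 bases before that of Nlrp9b and 2 bases before that of Nlrp9c. In Nlrp9b this start is not the RefSeq gene start, which lies 12681 bases upstream of the end of the aligned region. For Nlrp9a and Nlrp9c the RefSeq gene start lies 49 and 5 bases upstream of that end. The stretches each held 3 copies of CCAAT, the letters bound by the factor NF-Y, all on the coding strand and all inside runs that did not differ between the genes. The run AGCACAGGTGAAATATTTT, the longest, occurred in 0.00609% of 32851 RefSeq promoter windows, the windows of these genes included. For the Nlrp4 genes the stretches lie at chr7:26435450-26435629 (plus strand) for Nlrp4a, chr7:10687628-10687801 (plus strand) for Nlrp4b and chr7:6045025-6045204 (plus strand) for Nlrp4c.
Nlrp4a: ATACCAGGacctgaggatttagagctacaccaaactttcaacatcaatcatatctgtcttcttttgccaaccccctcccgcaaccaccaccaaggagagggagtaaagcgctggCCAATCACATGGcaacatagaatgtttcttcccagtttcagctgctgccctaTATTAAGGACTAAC
Nlrp4b: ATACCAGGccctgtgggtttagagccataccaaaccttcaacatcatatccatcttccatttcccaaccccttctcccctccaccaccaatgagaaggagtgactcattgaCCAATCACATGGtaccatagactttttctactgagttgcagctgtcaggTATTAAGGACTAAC
Nlrp4c: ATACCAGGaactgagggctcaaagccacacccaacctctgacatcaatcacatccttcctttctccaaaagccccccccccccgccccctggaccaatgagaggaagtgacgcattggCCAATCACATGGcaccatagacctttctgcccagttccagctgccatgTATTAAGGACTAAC

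These 3 stretches held 3 shared runs, and the middle one, CCAATCACATGG, occurred in 0.0213% of all windows. They ended 16 bases before the nearest GENCODE start of Nlrp4a and 64 bases before that of Nlrp4c, and 9 bases past that of Nlrp4b. The RefSeq gene starts lie 557 (Nlrp4a), 77 (Nlrp4c) and 49 (Nlrp4b) bases upstream of the end of the aligned region. No region of Nlrp4e aligned to the Nlrp4b window above the minimum score of 100 that Nlrp4a and Nlrp4c passed, although the coding sequence of Nlrp4e is nearly that of Nlrp4c. CCAAT, searched on both strands, was found in 7 of the 10 RefSeq windows of these genes and in 37.4% of all windows. The alignment and the CCAAT search were chosen after the sequences had been read. Of the other letters searched on both strands, the E-box CANNTG was in 10 of the 10 windows (72.3% of all), the NOBOX element TAATTG in 2 (8.0%), TAATTA in 1 (5.29%), the TATA box TATAAA in 1 (13.6%) and the GC box GGGCGG in 1 (35.7%). A match is only a match of letters, and binding was not measured.

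In control FGOs the mean levels of the 9 genes ranked from 13 (Nlrp14) to 4215 (Nlrp4c) of 26214 genes. Their summed TPM was 0.786% ± 0.0277 (SD, n = 3) of the total in control FGOs. Nlrp14 was the highest, with 2859, 2892 and 3016 TPM in the 3 control libraries. Nlrp4f, the partner of the subcortical maternal complex, followed with 1817, 2045 and 2021 TPM and a mean rank of 29. The lowest member, Nlrp4c, had 58.4, 41.5 and 54.2 TPM, and the next lowest, Nlrp4e, had a mean rank of 1585.

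The genes between these extremes were spread over the whole range. Nlrp4a had 760.0, 789 and 780.4 TPM, Nlrp9b 697, 651 and 774 TPM, and Nlrp4b 614, 606 and 629 TPM in the control FGO libraries. Nlrp9a had 384, 390.0 and 432 TPM, Nlrp9c 280.2, 250.4 and 289.9 TPM, and Nlrp4e 137, 158 and 159 TPM. In this order, from Nlrp14 down to Nlrp4c, each gene was above the next in every control library, and the ranges of neighbors overlapped for Nlrp4a and Nlrp9b alone. The close copies Nlrp4c and Nlrp4e stood at 51.4 ± 8.82 and 152 ± 12.7 TPM (mean ± SD, n = 3), a ratio of 2.95, and the Nlrp9 genes at 707 ± 62.5 (Nlrp9b), 402 ± 26.1 (Nlrp9a) and 273 ± 20.6 (Nlrp9c). The 3 copies that share the printed Nlrp4 stretch thus ranged from 51.4 to 776 TPM.

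**Figure D2:**
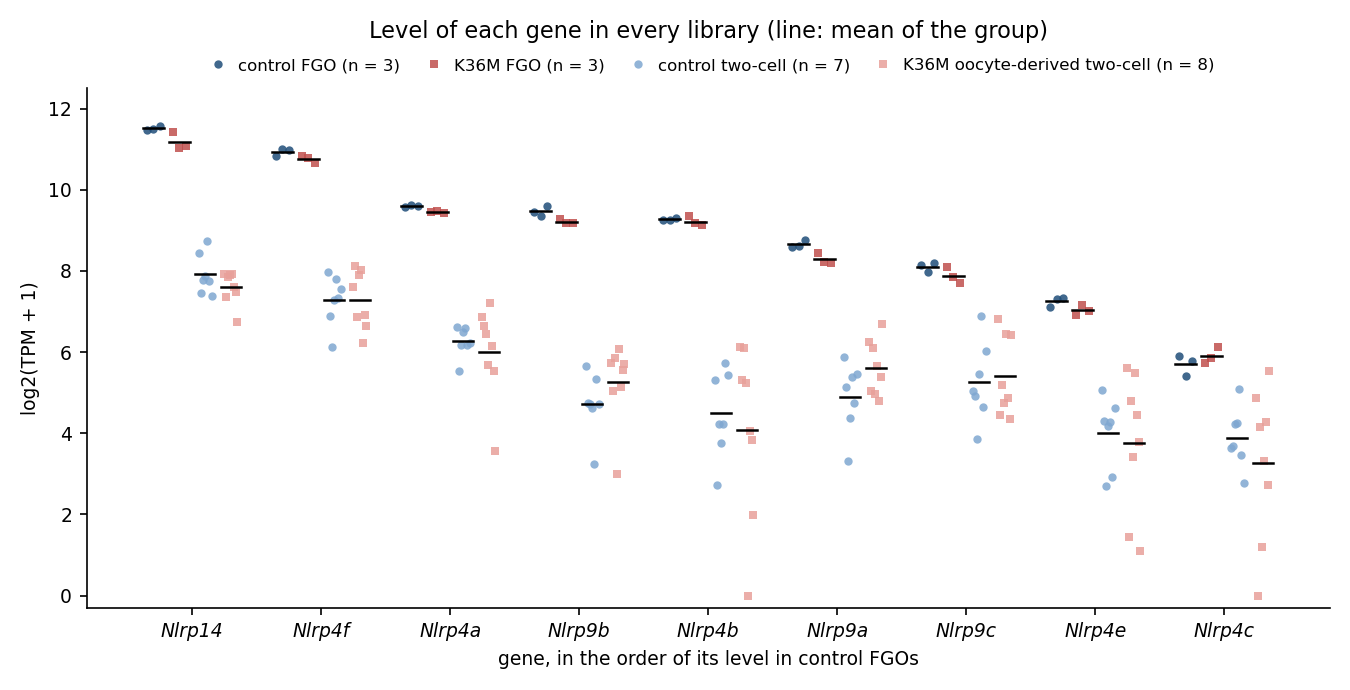
Level of each of the 9 genes as log2(TPM + 1) in every library; points are libraries (control FGO n = 3, K36M FGO n = 3, control two-cell n = 7, K36M oocyte-derived two-cell n = 8), and black lines are group means. Every FGO library lies above every two-cell embryo of the same genotype for all 9 genes, and the embryos are far more spread than the pooled FGOs.

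Whether K36M in the oocyte went with another level of these genes was asked first in FGOs. No gene of the 9 passed the test (limma on log2(TPM + 1), Benjamini-Hochberg adjusted p under 0.05), against 1 of the 13775 genes tested (0.00726%, lower in K36M). The study's own test, edgeR on read counts, called more genes between these FGO groups, so the number called belongs to the test used. At an unadjusted p under 0.05, 5 of the 9 were lower and none was higher, where 5.34% of all genes tested were lower. Of the 9 fold changes, 8 were below 0, with a median of -0.22 on the log2 scale. Over all genes tested 47.9% were below 0 and the median was 0.01. The lower side was not particular to the 9. Of a list of other Nlrp and related NLR genes, 7 of the 8 tested were below 0 (median -0.32). So were 8 of 9 genes of the subcortical maternal complex and its partners (median -0.09) and 8 of 13 oocyte markers (median -0.09).

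Nlrp14 had 2723, 2091 and 2147 TPM in the 3 K36M FGO libraries, all under the lowest control library. Its log2 fold change was -0.34 (SE 0.10, adjusted p = 0.365), with a 95% interval of -0.56 to -0.12. Nlrp9a had 348, 299.6 and 294.5 TPM, also below all controls, and gave the largest difference of the 9 at -0.36 (SE 0.09, adjusted p = 0.318). Nlrp9b had 621, 582 and 578 TPM, with a log2 fold change of -0.25 (adjusted p = 0.396). K36M libraries were below every control library for these 3 genes.

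The same held for Nlrp4a, at 696, 716 and 691 TPM, and barely for Nlrp4f, at 1812, 1751 and 1615 TPM. The groups therefore did not overlap for 5 of the 9 genes, all lower in K36M, where 8.17% of all genes tested were lower and 7.46% higher without overlap. Nlrp9c (271, 231 and 206 TPM), Nlrp4e (119, 143 and 128 TPM) and Nlrp4b (651, 574 and 559 TPM) overlapped the controls. Nlrp4c was the exception in sign, with 51.8, 56.9 and 68.9 TPM and a log2 fold change of 0.20 (95% interval -0.17 to 0.58). Every mean in K36M lay between 78.2% (Nlrp9a) and 115% (Nlrp4c) of that in controls.

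One library decided these calls. K36M FGO replicate 1 was the K36M library nearest to the control mean for every member except Nlrp4a and Nlrp4e, and without it Nlrp14 (log2 fold change -0.46, limma adjusted p = 0.0212) and Nlrp9a (-0.43, adjusted p = 0.0406) passed the threshold. In that fit 109 of 13799 genes tested were called lower (0.79%) and 191 higher (1.38%). The summed TPM of the granulosa and cumulus markers was 119 to 128 in control and 131 to 198 in K36M FGOs. The higher sums came from Nr5a2, at 77.1, 67.1 and 68.7 TPM in control and 72.6, 141 and 140.0 TPM in K36M FGOs. Without Nr5a2 the sums were 49.6 to 59.4 in control and 49.0 to 58.1 in K36M FGOs, with Ptx3 at 0 in every control and Tnfaip6 at 0 in every K36M library. Blood and macrophage markers summed to 67.7 to 70.9 and 61.9 to 68.4 TPM. K36M replicate 1 was also the one K36M library with Nr5a2 near the control level, and the part of such cells in the differences was not tested.

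**Figure D3:**
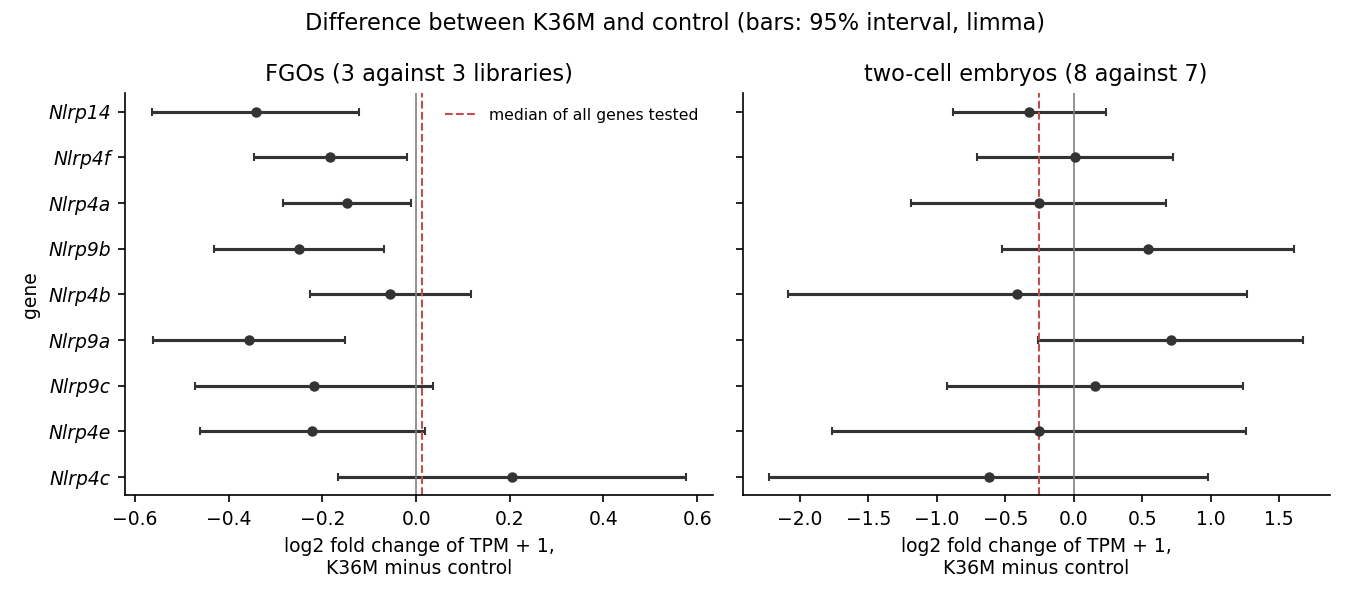
Log2 fold change of TPM + 1 (K36M minus control) of each gene in FGOs (left, 3 against 3 libraries) and two-cell embryos (right, 8 against 7), with 95% intervals from limma as bars; the dashed line is the median of all genes tested (0.01 and -0.26). In FGOs 8 of the 9 points lie below 0 by at most 0.36, and the intervals in embryos are wider.

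The transcripts were much less abundant in two-cell embryos than in FGOs. Their summed share was 0.786% of the TPM total in control FGOs and 0.0665% ± 0.0206 (SD, n = 7) in control two-cell embryos. It was 0.668% ± 0.0541 (n = 3) in K36M FGOs and 0.0663% ± 0.0179 (n = 8) in K36M oocyte-derived embryos. Against control FGOs, 8 of the 9 genes were called lower in control embryos and none higher, where 13.2% of the 17358 genes tested were called lower and 13.4% higher. The median log2 fold change of the 9 was -3.59, beside 0.0017 over all genes tested. TPM are relative values, so a smaller share and less RNA per cell cannot be told apart. Stage, pooling of FGOs, amplification (more cycles for the embryo libraries) and fertilization by another strain cannot be told apart either.

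Nlrp14 ranged from 165 to 424 TPM in the 7 control embryos, with a median of 219, and remained the highest of the 9. Its log2 fold change was -3.59 (SE 0.27, limma adjusted p = 5.15e-10). Nlrp4f ranged from 69.1 to 249 TPM with a median of 159, and its log2 fold change was -3.66 (SE 0.38, adjusted p = 1.05e-07). Both kept a similar part of their FGO level, 8.70% and 8.45% as ratios of group means.

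Nlrp4b and Nlrp9b fell furthest. Nlrp4b had 5.62 to 51.8 TPM (median 17.8), a log2 fold change of -4.78 (SE 0.94, adjusted p = 0.000487), and 4.33% of its FGO mean was left. Nlrp9b had 8.45 to 49.1 TPM (median 25.3), a log2 fold change of -4.74 (SE 0.52, adjusted p = 2.75e-07), and 3.98% was left. In control embryos 0.65% and 0.69% of all genes tested had a lower log2 fold change than these 2 genes.

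The remaining genes lay between. Nlrp9a had 9.03 to 58.0 TPM (median 34.2, log2 fold change -3.75), Nlrp4a 45.1 to 97.7 TPM (median 74.2, -3.34) and Nlrp4e 5.50 to 32.8 TPM (median 18.6, -3.24). Nlrp9c, with 13.5 to 117 TPM (median 31.9), had a log2 fold change of -2.84 (SE 0.58, adjusted p = 0.000689) and 16.9% of its FGO mean. Its copy Nlrp9b, above it in every control FGO library, was at 28.2 ± 12.9 TPM in control embryos against 46.1 ± 35.1 for Nlrp9c (mean ± SD, n = 7), and their ranges overlapped there.

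Nlrp4c was the one gene that did not pass the test. It had 5.89 to 33.0 TPM in control embryos (median 11.9), all below the lowest control FGO library, with a log2 fold change of -1.82 (SE 0.86, 95% interval -3.59 to -0.04, limma adjusted p = 0.123). The call depended on the fit: with only control libraries fitted the adjusted p was 0.0193, and with library weights 0.000817. All 9 genes were lower in every control embryo than in any control FGO library, where 18.2% of all genes tested were lower without overlap.

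K36M oocyte-derived embryos against K36M FGOs gave 9 of 9 called lower, where 18.6% of 17358 genes tested were called lower and 10.8% higher. Log2 fold changes ran from -2.46 (Nlrp9c) to -5.14 (Nlrp4b), beside a median of -0.18 over all genes. Nlrp4c, with 0 to 45.0 TPM (median 12.8), had -2.65 (SE 0.84, adjusted p = 0.0199). That call was lost when any 1 K36M FGO library was left out (adjusted p = 0.0614 without replicate 1, 0.0679 without replicate 2 and 0.084 without replicate 3), when only K36M libraries were fitted (0.0767) and with a pseudocount of 0.1 (0.0516). All 9 were lower without overlap, where 17.2% of all genes tested were.

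**Figure D4:**
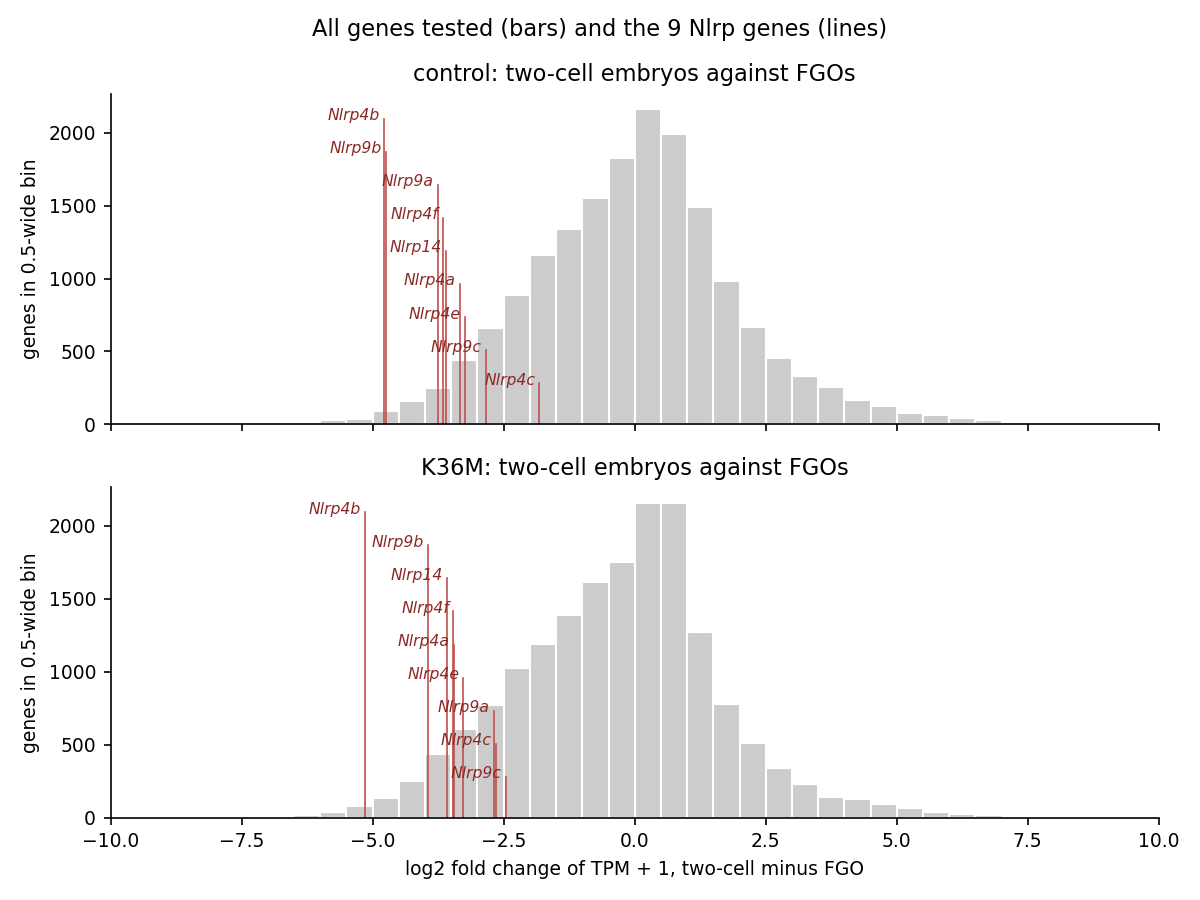
Histogram of log2 fold changes of TPM + 1 (two-cell minus FGO, bins of 0.5) over 17358 genes tested, in control (top) and K36M (bottom), with a line for each of the 9 genes. All 9 lines lie in the lower tail, from -1.82 (Nlrp4c) to -4.78 (Nlrp4b) in control and from -2.46 (Nlrp9c) to -5.14 (Nlrp4b) in K36M.

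Whether K36M in the oocyte went with another level of these genes after fertilization was asked in the embryos. None of the 9 differed by the test (limma, smallest adjusted p = 0.708), none had an unadjusted p under 0.05, and none of the 17362 genes tested (0.0%) was called, with 209 higher and 1129 lower at an unadjusted p under 0.05. All 9 genes overlapped between the groups, as did nearly all genes tested (0.0922% were lower and 0.023% higher without overlap). The median over all genes was -0.26, and it was -0.01 after quantile normalization. Relative to the unnormalized median, Nlrp9a lay at 0.96, Nlrp9b at 0.80, Nlrp9c at 0.41 and Nlrp4f at 0.27. Nlrp4e and Nlrp4a lay at 0.004 and 0.0002, and Nlrp14, Nlrp4b and Nlrp4c at -0.07, -0.16 and -0.36. Of all genes tested, 91.4% had a lower log2 fold change than Nlrp9a and 86.9% a lower one than Nlrp9b.

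Nlrp9a had the largest difference, with 26.6 to 103 TPM (median 45.3) in K36M oocyte-derived embryos and a log2 fold change of 0.71 (95% interval -0.26 to 1.67). Nlrp9b had 7.03 to 66.1 TPM (median 48.5) and 0.54 (95% interval -0.52 to 1.60). Both were on the lower side in K36M FGOs and on the higher side in K36M oocyte-derived embryos, and the interaction of genotype and stage did not pass the test for any of the 9 genes (limma, adjusted p = 0.99994 for each; 0 of 17358 genes called, 36 higher and 163 lower at an unadjusted p under 0.05). The interaction of Nlrp9a was 1.06 with a 95% interval of -0.31 to 2.44.

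Nlrp14 had 106 to 241 TPM (median 211) in K36M oocyte-derived embryos and a log2 fold change of -0.32 (95% interval -0.88 to 0.23). Nlrp4f had 74.4 to 278 TPM (median 156) and Nlrp4a 10.9 to 146 TPM (median 77.8). Nlrp9c had 19.5 to 111 TPM (median 31.9), Nlrp4b 0 to 68.3 TPM (median 26.1) and Nlrp4e 1.15 to 47.5 TPM (median 16.8). Nlrp4b was listed at 0 in K36M oocyte-derived replicate 5 and Nlrp4c in replicate 2. The intervals of Nlrp4b, Nlrp4c and Nlrp4e spanned more than 3 log2 units, so differences of several fold were not detectable at this spread.

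In embryos the order of the genes was less clear than in FGOs. Nlrp14, Nlrp4f and Nlrp4a kept the first places by mean in all 4 groups, and the ranges of every pair of neighbors overlapped in both groups of embryos. Nlrp14 was above Nlrp4f in 6 of 7 control and 5 of 8 K36M oocyte-derived embryos. As a part of the members' sum, Nlrp14 made up 37.2% ± 0.356 (SD, n = 3) in control FGOs and 38.3% ± 6.97 (n = 7) in control embryos, and Nlrp4f 24.9% and 24.6%. In controls Nlrp4b went from 7.85% to 4.09%, Nlrp9b from 8.99% to 4.55%, Nlrp9c from 3.48% to 6.56% and Nlrp4c from 0.654% to 2.38%. In K36M FGOs and K36M oocyte-derived embryos, Nlrp14 made up 34.6% ± 2.48 (n = 3) and 30.6% ± 6.98 (n = 8), and Nlrp4f 25.9% and 25.7%. There Nlrp4b went from 8.91% to 4.39%, Nlrp9b from 8.91% to 6.73%, Nlrp9c from 3.53% to 7.58% and Nlrp4c from 0.896% to 2.56%. Nlrp9a went from 5.11% to 4.89% in controls and from 4.70% to 8.40% in K36M.

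The genes differed in how far they moved together from embryo to embryo. After the group mean was taken from each value, the 36 pairs had a median Pearson r of 0.21 across 15 embryos (range -0.50 to 0.69), and 27 pairs were above 0. Over all pairs of genes averaging 5 TPM or more the median was 0.03, and 39552467 of 73865935 pairs were above 0. The values of a library share its depth, so these are descriptions. The genes most like each member were other genes of diverse kinds. They were picked as the highest of 12146 genes over 15 embryos, and no baseline for such picked values was computed. For Nlrp14 they were Fhod3 (r = 0.89), Tpd52 (0.88) and Zc3h14 (0.86), and for Nlrp4f Bcas1 (0.86), Lancl2 (0.86) and Rpap2 (0.84), as the 3 highest of 12146 genes over 15 embryos. For Nlrp4a they were Trappc9 (0.91), Gm3219 (0.90) and Umodl1 (0.90), and for Nlrp4b Msl3 (0.92), Fam83g (0.91) and Myd88 (0.89). For Nlrp4c they were Naa16 (0.91), Tada1 (0.89) and Nrg4 (0.89), and for Nlrp4e Myo9a (0.90), Tmem14c (0.90) and Zbtb46 (0.89). For Nlrp9a they were Cep350 (0.86), Inhbb (0.84) and Scn10a (0.83), for Nlrp9b Snrpb (0.91), Ube2n (0.86) and Snora3 (0.84), and for Nlrp9c Ccdc116 (0.87), Tmf1 (0.85) and Phf14 (0.85).

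Other genes of the family were examined with a list of 23 Nlrp and related NLR genes, of which 22 were in the table and 15 were tested across stages. In control embryos against FGOs 4 were called lower, Nlrp2, Nlrp4g, Nlrp5 and Naip1, and 4 higher, Nlrp5-ps, Nlrp6, Nlrp12 and Nod1, where 13.2% and 13.4% of all genes tested were. In K36M the same 4 were called lower (18.6% of all genes tested) and 2 higher (10.8%), Nlrp12 and Nlrc3, while Nlrp5-ps (log2 fold change 1.51, limma adjusted p = 0.166), Nlrp6 (2.28, adjusted p = 0.0624) and Nod1 (0.73, adjusted p = 0.588) did not pass. Nlrp5 had 1805 ± 96.2 TPM in control FGOs (mean ± SD, n = 3) and 165 ± 40.9 in control embryos (n = 7), with a log2 fold change of -3.47 (SE 0.22, limma adjusted p = 2.3e-11). Nlrp4g went from 676 ± 25.1 to 71.6 ± 41.7 TPM and Nlrp2 from 500.2 ± 28.2 to 23.96 ± 16.0 TPM. These 3 genes, all high in oocytes, fell by amounts within the range of the 9. The 4 called higher in controls started from 1.75 TPM or less on average in control FGOs and reached 8.85 to 15.8 TPM, and the shared windows of Nlrp5-ps with Nlrp5 (291 of the 5010 of Nlrp5) make its level uncertain.

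The inflammasome sensors and receptors of immune cells were low or variable. Nlrp3, the best known inflammasome sensor, had 0.444 TPM on average in control FGOs and 7.04 in control embryos (0.170 to 24.6, log2 fold change 1.87, adjusted p = 0.217). Nod2, a receptor for bacterial peptidoglycan, went from 31.9 to 6.55 TPM (adjusted p = 0.102), Nlrc4 from 19.6 to 8.20 TPM (adjusted p = 0.326) and Nlrc3 from 0.177 to 6.41 TPM (adjusted p = 0.052). Naip1, a partner of Nlrc4, fell from 13.1 to 0.224 TPM (adjusted p = 0.0022). Nlrx1, Naip6, Ciita, Nlrc5, Naip2, Nlrp1a and Nlrp1c-ps stayed at 8.66 TPM or less on average in every group. In the genotype comparisons none of the list was called, with a smallest adjusted p of 0.306 in FGOs (Nlrp5, 1805 and 1443 TPM) and 0.65 in embryos.

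Among 12 inflammasome adaptors, effectors and sensors, 6 were tested across stages, and in controls 2 were called lower and 1 higher. Txnip, a thioredoxin-binding protein, had 733 TPM in control FGOs and 57.6 in embryos (log2 fold change -3.87) and Casp8 had 28.0 and 4.41 TPM (-3.09). Dhx9, an RNA helicase, had 43.0 and 267 TPM (2.33), and Nek7 24.6 and 18.9 TPM (adjusted p = 0.427). The mRNAs of Casp1, Il1b, Aim2 and Mefv were listed at 0 in every control embryo.

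The 9 genes are compared last with lists of known oocyte and embryo genes, and the genes named are the highest of each list by mean TPM over all 21 libraries, an order that differs from the order in FGOs. Of the 9 listed genes of the subcortical maternal complex and its partners, 8 were called lower in control embryos, with a median log2 fold change of -3.98, and 12 of the 13 oocyte markers were, with a median of -3.97. Padi6, needed for cytoplasmic lattices, had 3927 ± 183 TPM in control FGOs and 262 ± 88.3 in control embryos, Zbed3 8234 ± 566 and 3737 ± 1888, and Cfl1, the actin-severing cofilin, 764 ± 44.2 and 640 ± 219 (adjusted p = 0.381), while Ywhae, a 14-3-3 protein, had 799.6 ± 26.1 and 439 ± 104. Among oocyte markers, Gdf9, an oocyte growth factor, had 4942 and 256 TPM, Zp3 of the zona pellucida 2310.3 and 65.1, Btg4 3498 and 1205, and Oosp1 1768 and 369. Of 8 zygotic two-cell markers 7 were called higher in control embryos and none lower, as with Zfp352, at 0.202 TPM in control FGOs and 245 in control embryos, Usp17lc (1.48 and 299.6 TPM) and Tcstv3 (13.4 and 168 TPM). Tcstv1, with 40.7 and 184 TPM, was the one not called (adjusted p = 0.126). The labelled stages thus carried their markers.

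Some markers of other cell types reached the level of the members. Granulosa and cumulus markers summed to 134 to 261 TPM in control and 77.8 to 391 in K36M oocyte-derived embryos, and blood and macrophage markers to 24.8 to 73.7 and 28.0 to 307. Nr5a2, which embryos also express, made up much of the first with 71.0 TPM in control FGOs and 174 in control embryos, above every member but Nlrp14 there. Without Nr5a2 the granulosa and cumulus sums were 3.04 to 110 TPM in control and 0.959 to 115 in K36M oocyte-derived embryos. Cyp19a1, the granulosa aromatase, was at 25.1 and 0.803 TPM, and Kitl at 9.86 and 8.15 TPM. Foxl2 averaged 2.22 and 12.6 TPM, with 72.5 TPM in control embryo replicate 6 and 104 TPM in K36M oocyte-derived replicate 8. Of the blood list Pecam1, with 65.1 TPM in control FGOs and 38.6 in control embryos, was the highest and stood above Nlrp4c in both. Lyz2, Cd68 and Alas2 averaged 4.36 TPM or less in both control groups, but Lyz2 reached 246 TPM in K36M oocyte-derived replicate 3. The part of such cells in the embryo values was not tested. In all, 17362 to 18559 genes were above 0 in control FGO libraries and 12115 to 17329 in control embryos, 16707 to 18014 in K36M FGO libraries and 10894 to 14879 in K36M oocyte-derived embryos. TPM values carry no depth. The study lists more total reads for each FGO library than for any embryo library, so depth and stage cannot be told apart.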

How the data were processed

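The authors trimmed reads of the stranded SMART-Seq libraries with Trim Galore!, mapped them to mm10 with HISAT2, removed ribosomal RNA reads with BEDTools, counted genes with featureCounts and deposited TPM values. The annotation, gene lengths and strand setting behind the deposited TPM are not given in the sources used here. All 22 libraries in the table were mapped to labels, and 21 were used.

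Linear models of log2(TPM + 1) were made in R 4.3.3 using limma 3.58.1 (lmFit, then eBayes allowing a trend of variance with mean). Genes entered a model if they averaged 1 TPM or more in its libraries, p-values were adjusted over all such genes by Benjamini-Hochberg, and 0.05 was the threshold. FGOs and embryos were fitted apart for genotype, and 21 libraries together, with 4 group means, for stage and for the interaction. Fold changes on this scale understate the change of low genes. The fit was tested on simulated data. Where nothing says that libraries came from separate females, p-values measure the spread between these libraries.

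Positions and coding sequences came from RefSeq (GRCm38.p6), transcripts from GENCODE and promoter windows from RefSeq, read with Python 3.11.15, Biopython 1.88, pysam 0.24.0 and SAMtools 1.23.1. The members and the gene lists were chosen with earlier results of these data known. Named genes were all 9 members, NLR-list genes averaging 1 TPM or more in any group, the 4 highest genes of each other list by mean TPM over the 21 libraries, and the 3 genes most like each member. Beyond these, some genes of the inflammasome and the granulosa and cumulus lists are named where they were listed at 0 or for single embryos. Subcortical complex genes that are also NLR genes are given with the latter. Alternatives were another pseudocount, other filters, quantile and median-of-ratios scaling, no trend, library weights, a replicate block, each library left out in turn (leaving out each embryo was added after seeing the data) and control embryo replicate 4 added.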

Additional observations from a re-analysis of the deposited data

Results flagged for a closer look

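The farthest embryo of a group was compared with the rest in 20 comparisons (9 genes and their sum in both groups, Dixon's gap over range on log2(TPM + 1)). In these, 5 values stood apart. About 1 would for normal and independent values, but the sum is built from the same genes. The share over all genes was not computed, so no excess can be read from the count. Nlrp4a was at 45.1 TPM in control embryo replicate 2 (others 71.3 to 97.7) and at 10.9 TPM in K36M oocyte-derived replicate 8 (others 45.0 to 146). Nlrp9b was at 8.45 TPM in control replicate 6 (others 23.8 to 49.1) and at 7.03 TPM in K36M oocyte-derived replicate 4 (others 31.7 to 66.1). Nlrp14 was at 106 TPM in K36M oocyte-derived replicate 8 (others 164 to 241). All 5 were the lowest of their group, and K36M oocyte-derived replicate 8, low in Nlrp14 and Nlrp4a, held the highest Nlrp9a (103 TPM) and Nlrp4c (45.0 TPM) of its group. The granulosa marker Foxl2 was highest in this embryo (104 TPM) and, among controls, in replicate 6 (72.5 TPM). Of the other listed granulosa and cumulus markers, Fshr, Cyp19a1, Ptx3 and Tnfaip6 were at 0 in both embryos. In the same order of embryos, Kitl was at 0.535 and 0.5055 TPM and Has2 at 0.46 and 0 TPM. Amh was at 1.71 and 26.3 TPM, Inha at 8.75 and 10.6 TPM and Nr5a2 at 276 and 24.1 TPM. The part of such cells was not tested. Over all genes, the median Spearman rho with the other embryos was 0.718 for K36M oocyte-derived replicate 8 and 0.750 for control replicate 6, each the low end of its group's spread (others 0.730 to 0.788 and 0.770 to 0.811). K36M oocyte-derived replicate 8 had 11178 genes above 0 TPM, the second fewest of its group.

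The control embryo left out of the comparisons, replicate 4, had the highest level of all control embryos for 6 of the 9 genes, as it had for 18.6% of 17362 genes averaging 1 TPM or more in the embryos compared, and it was the lowest for 15.6%. It also differed from the other embryos over all genes, with a median Spearman rho of 0.691 (other controls 0.750 to 0.811) and 7.44% of its TPM in its 10 highest genes (other controls 3.20% to 5.02%). It held 225 TPM of Nlrp4a (others at most 97.7), 72.4 of Nlrp4e (at most 32.8), 303 of Nlrp4f (at most 249), 77.9 of Nlrp9a (at most 58.0), 117 of Nlrp9c (at most 117) and 513 of Nlrp14 (at most 424). Its Nlrp4c, at 2.50 TPM, was below the others, and Nlrp4b and Nlrp9b lay inside their range.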

How the results depend on the processing

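The number of genes called in FGOs by genotype was 0 under every alternative except one omitted library, with a range of 0 to 2 when each FGO library was left out, 2 without K36M replicate 1. In embryos by genotype and for the interaction it was 0 under all alternatives run. It was 8 to 9 in both stage comparisons under all 31 alternatives, Nlrp4c being the gene whose call changed. Directions in both stage comparisons and in FGOs were the same under all alternatives.

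In embryos by genotype, the log2 fold changes of Nlrp4a (-0.26), Nlrp4b (-0.41), Nlrp4e (-0.25), Nlrp4f (0.0097) and Nlrp9c (0.15), none of them past the threshold, changed sign under some alternatives. Under quantile normalization Nlrp4b was 0.028, Nlrp4e 0.38 and Nlrp4f -0.0089. Library weights gave 0.19 for Nlrp4b. With control replicate 4 added, Nlrp4f was -0.11 and Nlrp9c -0.051. With each embryo left out in turn, the ranges were -0.427 to 0.0912 for Nlrp4a, -0.71 to 0.17 for Nlrp4b, -0.52 to 0.13 for Nlrp4e, -0.18 to 0.16 for Nlrp4f and -0.0806 to 0.423 for Nlrp9c. The cause was not tested.

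Same-numbered libraries deviated from their group means with r of 0.015 to 0.10 in FGOs and -0.10 to 0.097 in embryos, so the numbers were not read as pairs. With the replicate block the counts of the 9 genes called were 0 in FGOs, 0 in embryos, 8 and 9 across stages and 0 for the interaction, Nlrp4f in embryos was -0.0785, and no other sign changed. The spread among single embryos limits the embryo comparisons, and reads shared between copies limit Nlrp4e.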
